A study of Mus musculus with 2 samples.

Results

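In the mouse uterus at gestation day 2.5 (G2.5), tags were counted for a set of serine proteases and of the proteins that block them, many at low copy numbers. This set was taken by gene name and comprised the serpins, the Kazal-type (Spink), Kunitz-type (Spint) and WAP-type (Wfdc, Slpi) inhibitors, and the Prss, Klk, Tmprss and Htra proteases. The plasminogen activators Plat and Plau, the receptor Plaur and the matriptase gene St14 completed it. The rule found 74 genes among the 14678 genes of the table. The name rule used no measured value.

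The animals were double transgenic females, VEGFtetO/tetO/beta-AKtg/wt, in both groups. They carried 4 tet operator copies in the promoter of VEGF and a tetR-Krab fusion protein driven everywhere by the beta-actin promoter. The Dox+ animals, labelled VEGF-normal, were kept on food containing doxycycline at 200 mg/kg. The Dox− animals, labelled VEGF-repression, lost doxycycline at 3 to 4 weeks of age and ate regular chow for 6 weeks, which lets the fusion protein block the promoter. All mice were littermates of 9 to 10 weeks. The repressor was not limited to the uterus. RNA of 3 uteri was pooled for each group and 1 tag library was sequenced, so no difference has a replicate check, and animal variation cannot be separated from the diet.

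Serine proteases cut proteins with an active-site serine, and they act in matrix turnover, activation of growth factors, clotting and ion transport across epithelia. Serpins trap their protease in an irreversible complex, while Kazal, Kunitz and WAP domains plug the active site reversibly. In the uterus before implantation, both the luminal epithelium and the stroma release such proteases and inhibitors. Some serpins have lost inhibitor function and serve as chaperones or signals.

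The libraries held 5985925 clean tags in Dox+ and 5844314 in Dox−, of which 74.1% and 72.2% were assigned to genes. A gene's copy number is its tag count, and a level is given as TPM, the copies scaled to 1000000 clean tags, with no length correction. Vegfa, the repressed gene, had 247 copies in Dox+ and 125 in Dox−, 1.93-fold lower (95% interval 1.55 to 2.41). All 6 listed genes of uterine identity had tags in both libraries, and the 5 with at least 200 combined copies were all called, 2 higher and 3 lower. Hoxa10 had 3120 and 1060 copies, Hoxa11 2573 and 785, and Pgr 687 and 1251 in Dox+ and Dox−. Hand2 had 985 and 143 copies and Esr1 165 and 262. The 15 epithelial markers with a row summed to 1673 (Dox+) and 3585 TPM (Dox−), with 8 of 14 called higher and 2 lower. The 8 myometrial markers summed to 6531 and 4501 TPM, with 4 called lower and none higher, and the 8 endothelial markers to 236 and 161 TPM, with 3 of 5 called lower. The 11 stromal markers summed to 9838 and 11755 TPM, with 2 called higher and 4 lower. Col1a1 alone had 3845 and 5766 TPM of these sums, and 7 of the 11 markers had a lower level in Dox−. Whole uteri were measured, so fewer cells of a type and less RNA per cell cannot be told apart.

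The serine protease and inhibitor genes together held 28312 copies in Dox+ and 26782 in Dox−, or 4730 and 4583 TPM, a ratio of 0.969 (0.953 to 0.985). Serpinh1 made up 56.8% of these copies in Dox+ and 52.2% in Dox−. Without it the sums were 2045 and 2191 TPM, a ratio of 1.07 (1.04 to 1.10). The 31 protease genes summed to 909 and 1133 TPM, a ratio of 1.25 (1.20 to 1.29). The 42 serpin, Kunitz, Kazal and WAP genes summed to 3815 and 3442 TPM, a ratio of 0.902 (0.885 to 0.920). All intervals are 95% Clopper-Pearson (exact) and describe counting error alone, since tags without molecular identifiers are not independent molecules. The higher protease sum rested on Htra1 and Prss23. Without these the sum was 639 TPM in Dox+ and 571 TPM in Dox−, a ratio of 0.894 (0.853 to 0.937).

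A gene was called when its copies in both libraries summed to at least 200, the Audic-Claverie test gave an FDR below 0.05, and the levels differed at least 1.5-fold. This test compares these libraries and not the conditions. Of the 74 genes, 20 reached 200 combined copies and 5 of these were called, 3 higher and 2 lower in Dox−. The share, 25.0%, was near that of all 6547 genes with as many copies, of which 29.9% were called, 15.2% higher and 14.7% lower. Their log2 ratios had a median of −0.08, against 0.03 for all genes, and 7 of the 20 were above 0. At a fold of at least 2, Prss23 and Spink12 were called higher and Wfdc1 lower, where 4.61% of all genes were called higher, 5.62% lower and 10.2% in either direction. At a fold of at least 5, Spink12 was called higher and no gene lower, where the shares of all genes were 0.642%, 0.748% and 1.39%.

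**Figure D1:**
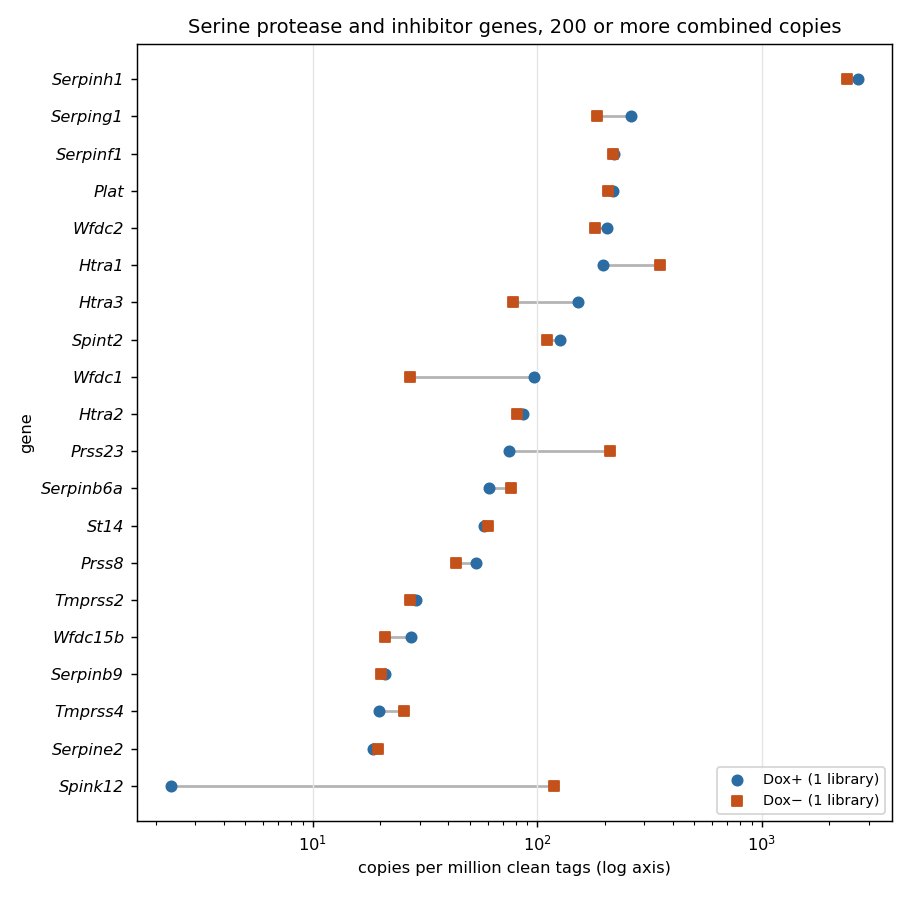
Levels in TPM (log axis) of the 20 serine protease and inhibitor genes with at least 200 combined copies, with circles for the Dox+ library and squares for the Dox− library. Most pairs lie close together, and the long lines belong to Spink12 (2.34 and 119), Wfdc1 (96.7 and 27.0), Prss23 (74.7 and 210) and Htra3 (152 and 77.9).

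The called genes were Spink12, Prss23 and Htra1, which rose, and Wfdc1 and Htra3, which fell. Spink12 had by far the widest ratio, and 2 of the 3 HtrA genes tested were among the called genes, moving opposite ways. The other 15 tested genes lay between log2 ratios of −0.51 and 0.37. Among them Serping1, 1.42-fold lower, was the nearest to the threshold of 1.5. The ratio plot and the histogram of all genes show these values.

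**Figure D2:**
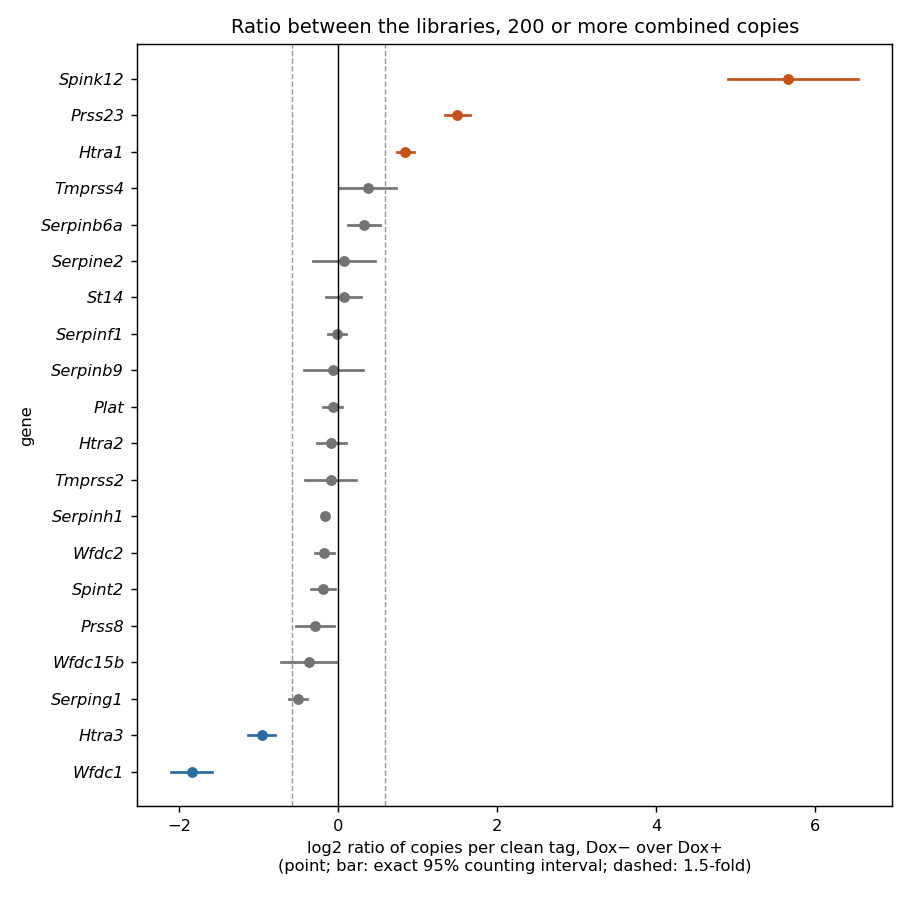
Log2 ratio of Dox− over Dox+ for the 20 genes with at least 200 combined copies, with bars for the exact 95% counting interval and dashed lines at 1.5-fold. Spink12, Prss23 and Htra1 lie right of the dashed lines, and Htra3 and Wfdc1 left of them. The bars of Serping1 (1.31 to 1.54-fold lower), Wfdc15b (1.02 to 1.65-fold lower) and Tmprss4 (1.01 to 1.66-fold higher) each cross one.

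**Figure D3:**
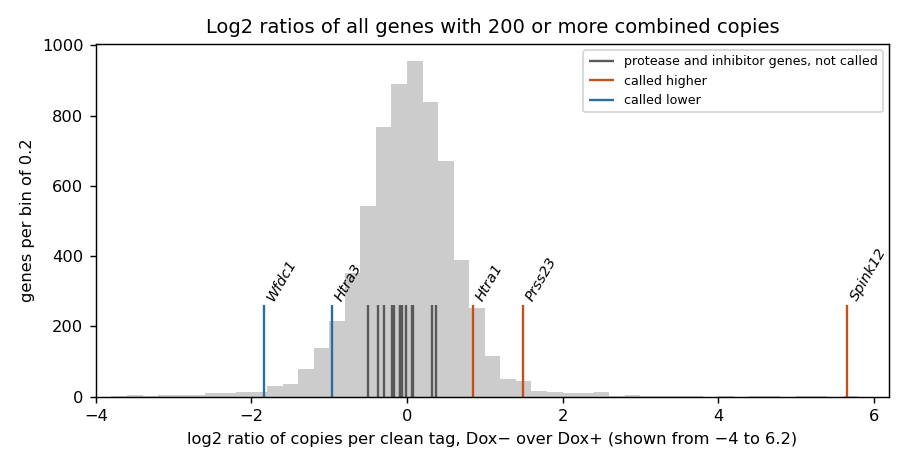
Histogram of the log2 ratio of Dox− over Dox+ of all 6547 genes with at least 200 combined copies, in bins of 0.2, with a vertical line for each of the 20 protease and inhibitor genes. The uncalled genes lie in the central peak, and Spink12 lies in the far right tail with 99.9% of all genes below it.

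Spink12, a secreted protein with a Kazal domain, had 14 copies in Dox+ and 693 in Dox−, 2.34 and 119 TPM. The rise was 50.7-fold, and the 14 copies of Dox+ left a wide interval of 30 to 93.2. Of all genes with at least 200 combined copies, 99.9% had a lower ratio. The other Kazal genes did not share this size or this level. Spink8 had 31 and 6 copies, Spink2 16 and 11, and Spink4 4 and 16 in Dox+ and Dox−, all below 200 combined copies. The 4 Spink genes summed to 10.9 (Dox+) and 124 TPM (Dox−), where Spink12 held 693 of their 726 copies.

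Of the 14 tested epithelial markers, 12 had more copies per clean tag in Dox−, the direction of Spink12, and 8 of these were called. Cd24a had 1333 and 7341 copies, Elf3, an epithelial transcription factor, 185 and 1083, and Ltf, the secreted iron-binding protein lactotransferrin, 905 and 2639, all called higher. Among the keratins, Krt7 was called higher, with 179 and 600 copies, 3.43-fold (2.90 to 4.08). Krt8, Krt18, Krt19 and Cdh1 differed less and were not called, between 1.14-fold and 1.35-fold higher. Their copies were 1330 and 1481 for Krt8, 675 and 856 for Krt18, 703 and 909 for Cdh1 and 1554 and 2046 for Krt19. The marker sum was 2.14 times as high in Dox− and, without Cd24a, 1.61 times as high (1450.1 and 2329 TPM), while Cldn3 fell from 1482 to 494 copies and Cldn4 from 149 to 65. The part of epithelial content in the Spink12 difference was not tested.

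The HtrA family codes for serine proteases with a PDZ domain. Htra1 and Htra3 are secreted and act on matrix proteins and TGFβ family signals, Htra3 is known from the pregnant mouse uterus, and Htra2 sits in mitochondria. Htra1 (chromosome 7, 138079625 to 138129174, plus strand, NCBIM37) rose from 1172 to 2054 copies between Dox+ and Dox−, or from 196 to 351 TPM, 1.80-fold (1.67 to 1.93). Htra3 (chromosome 5, 35994682 to 36022431, minus strand) fell from 909 to 455 copies, or from 152 to 77.9 TPM, 1.95-fold (1.74 to 2.19). Htra2 had 517 and 475 copies, and its interval of 0.936 to 1.21-fold lower included 1. Htra4 had 4 copies in Dox+ and 0 in Dox−, too few for a comparison.

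The secreted pair therefore moved apart. Copies of Htra1 per copy of Htra3 were 1.29 in Dox+ and 4.51 in Dox−, a 3.50-fold difference (3.06 to 4.01) that does not depend on the library totals. The summed HtrA level changed less, from 435 to 511 TPM, a ratio of 1.17 (1.11 to 1.24).

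The start regions of these secreted relatives are shown because the genes moved in opposite directions. Each line gives the 250 bases before the transcript start that the RefSeq table gives, on build GRCm38.p6. The capitals mark matches, on either strand, to the TATA word TATAAA, the CAAT box word CCAAT, the GC box word GGGCGG, the hypoxia-type word ACGTG, the nuclear receptor word GGTCA or the steroid receptor word TGTTCT, none of which contains another. Both sequences were found once in NCBIM37, at chromosome 7, 138079467 to 138079716, for Htra1 and chromosome 5, 36022430 to 36022679, for Htra3. The gene models behind the positions above start elsewhere, so that the last 92 bases of the Htra1 window and the last 2 of the Htra3 window lie inside those genes.
Htra1, chr7:130935953-130936202, plus strand: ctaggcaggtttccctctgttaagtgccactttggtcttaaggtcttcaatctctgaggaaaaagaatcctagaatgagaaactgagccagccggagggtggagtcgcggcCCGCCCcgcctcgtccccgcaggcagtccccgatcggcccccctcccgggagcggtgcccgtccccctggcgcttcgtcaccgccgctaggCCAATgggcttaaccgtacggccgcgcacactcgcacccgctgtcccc
Htra3, chr5:35679781-35680030, minus strand: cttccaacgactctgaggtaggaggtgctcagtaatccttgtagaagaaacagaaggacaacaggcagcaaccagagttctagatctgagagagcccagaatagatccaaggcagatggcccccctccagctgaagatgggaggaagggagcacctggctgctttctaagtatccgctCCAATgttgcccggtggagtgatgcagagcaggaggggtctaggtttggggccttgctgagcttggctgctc

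The Htra1 window was 64.8% G and C with 22 CG pairs, more pairs than in 85.4% of all 27025 windows of this length, 1 per gene. The Htra3 window was 54.8% G and C with 3 CG pairs, where the median window had 6. CCAAT stood 48 bases before the RefSeq start in Htra1, inside the other gene model, and 72 bases before it in Htra3, a word held by 34.5% of the windows. GGGCGG, held by 32.9%, was matched in Htra1 alone of the pair, and the other 4 words were in neither window. Of all windows 13.0% held TATAAA, while 16.6% held ACGTG. The word GGTCA was in 34.9% of them, and the word TGTTCT in 16.2%. These matches are letters in a reference sequence, and no binding was measured.

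WAP-domain genes code for small secreted proteins with a core of disulfide bonds. Wfdc1 (chromosome 8, 122190423 to 122212122), a growth-restraining protein also called ps20, fell from 579 copies in Dox+ to 158 in Dox−, or from 96.7 to 27.0 TPM, 3.58-fold (3.00 to 4.29). Only 1.24% of all genes with at least 200 combined copies had a lower ratio. Wfdc2, known as HE4 and made by reproductive tract epithelium, had 1220 and 1054 copies, 1.13-fold lower (1.04 to 1.23). Its counts differed beyond counting error but did not reach the fold. Wfdc15b had 163 and 123 copies, and Slpi, the secretory leukocyte protease inhibitor, 21 and 32.

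Copies of Wfdc2 per copy of Wfdc1 were 2.11 in Dox+ and 6.67 in Dox−, a 3.17-fold difference (2.60 to 3.87). The 9 genes of the group summed to 341 (Dox+) and 235 TPM (Dox−), a ratio of 0.689 (0.643 to 0.738). Wfdc1 alone held 96.7 and 27.0 TPM of these sums. The 8 myometrial markers, 4 of them called lower, summed to 6531 and 4501 TPM, and each had fewer copies in Dox−. Among these markers Tagln had 11417 and 8854 copies, Actg2 7436 and 5086, and Myh11 4609 and 3169. Their part in the Wfdc1 difference was not tested.

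Of the Prss proteases outside the membrane group, Prss23 was the only one with 200 combined copies. Prss23 (chromosome 7, 96656295 to 96666096, minus strand), a secreted protease known from the ovary, rose from 447 to 1230 copies between Dox+ and Dox−, or from 74.7 to 210 TPM, 2.82-fold (2.53 to 3.15). Of all genes tested, 98.4% had a lower ratio. Prss36 had 36 and 22 copies and Prss53 14 and 9, and both intervals included 1. The remaining 7 genes of this group had fewer than 20 combined copies.

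Membrane-anchored proteases and their Kunitz inhibitors form a cascade on the epithelial surface, in which prostasin (Prss8) and matriptase (St14) activate each other and HAI-1 (Spint1) and HAI-2 (Spint2) block them. None of the 5 of these genes with enough copies, Tmprss2 and Tmprss4 included, was called. St14 had 346 and 354 copies in Dox+ and Dox−, 1.05-fold higher (0.901 to 1.22). Prss8 had 318 and 254 copies, 1.22-fold lower (1.03 to 1.45). Spint2 had 759 and 648 copies, 1.14-fold lower (1.03 to 1.27), and Spint1 93 and 70.

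The balance within the cascade differed by less than counting error. Copies of St14 and Prss8 per copy of Spint1 and Spint2 were 0.779 in Dox+ and 0.847 in Dox−, and their ratio of 1.09 had an interval of 0.934 to 1.26. Tmprss2, a transmembrane protease, had 173 and 158 copies. Tmprss4 had 118 and 149, 1.29-fold higher (1.01 to 1.66). The 6 genes summed to 302 and 279 TPM, a ratio of 0.926 (0.865 to 0.990). The epithelial marker sum was 2.14 times as high in Dox− as in Dox+, or 1.61 times without Cd24a.

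Below 200 copies, the genes grouped here as membrane-anchored held their steepest difference in Prss22. This gene, a tryptase-like protease of epithelia, was grouped by its name, and a membrane anchor was not checked. Prss22 is named here after its values were seen, and had 4 copies in Dox+ and 72 in Dox−, 18.4-fold (6.90 to 69.5). Tmprss6, a protease known from the control of iron uptake in liver, had 28 and 61 copies, 2.23-fold (1.40 to 3.63). Neither could be called under the rule.

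The plasminogen system turns plasminogen into plasmin, which dissolves fibrin and opens matrix. Plat, the tissue-type activator, had 1300 copies in Dox+ and 1208 in Dox−, 217 and 207 TPM, 1.05-fold lower with an interval of 0.971 to 1.14. Serpine2, an inhibitor of both activators and of thrombin, had 111 and 114 copies. Serpini1 (neuroserpin), an inhibitor of Plat, had 18 and 16 copies. Plau, the urokinase-type activator, had 7 and 3 copies and its receptor Plaur 31 and 42, so that urokinase was near the floor of 3 copies. With 1 library in each group, these values do not show that the system was equal in both conditions.

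Serpins outside clades A and B held the most copies. Serpinh1 (Hsp47), a chaperone of collagen in the endoplasmic reticulum that inhibits no protease, had 16068 and 13980 copies, 2684 and 2392 TPM, 1.12-fold lower (1.10 to 1.15). Its large counts gave a narrow interval away from 1, and it was not called. Serpinf1 (PEDF), a serpin without inhibitor function that restrains vessel growth, had 1315 and 1270 copies, 1.01-fold lower (0.935 to 1.09). Serping1, the C1 inhibitor that restrains complement and the contact system, had 1571 and 1080 copies, 262 and 185 TPM, 1.42-fold lower (1.31 to 1.54). With a cutoff on the absolute log2 ratio of 0.5 in place of 1.5-fold, Serping1 was called lower, at −0.51.

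Clade B serpins act inside cells. Serpinb6a had 363 and 444 copies, 1.25-fold higher (1.09 to 1.44), and Serpinb9, the inhibitor of granzyme B, 126 and 118. Neither was called. Serpinb6b had 96 and 49 copies, 1.91-fold lower (1.34 to 2.76), opposite to Serpinb6a, at 145 combined copies. Serpinb11 had 3 and 29 copies, 9.90-fold (3.07 to 50.8). Serpinb7 had 0 copies in Dox+ and 15 in Dox−, 5.12-fold higher with 3 copies set for Dox+ and an interval from 3.67 upward. The Serpinb6, Serpinb9, Serpinb1, Serpina3 and Klk1b genes lie in families of close copies, and tags that match several genes were not counted, so their counts are uncertain.

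Clade A serpins, most of them plasma proteins made in liver, had few copies. Serpina3n, an acute-phase inhibitor, had 64 and 18 copies, 3.47-fold lower (2.03 to 6.22), and Serpina3g 39 and 36. The 7 genes summed to 18.9 and 11.3 TPM. Kallikreins, trypsin-like proteases of glands and skin, were as low. Klk10 had 20 and 41 copies, 2.10-fold higher (1.20 to 3.78), and Klk8 18 and 32, with an interval that included 1. The other 3 kallikreins had 4 copies or fewer in each library.

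Of the 54 genes under 200 combined copies, 21 had at least 20 and 33 had fewer. The interval of 9 of the 21 excluded 1, 5 higher and 4 lower in Dox−, where 41.1% of all genes with 20 or more but fewer than 200 copies did so, 21.1% higher and 20% lower. The 4 lower genes were Serpinb6b, Serpina3n, Spink8 and Wfdc13, the last with 26 and 2 copies, and the 5 higher were Prss22, Tmprss6, Klk10, Serpinb11 and Spink4. In all, 17 of the 74 genes had no tag in Dox+ and 11 no tag in Dox−, and 46 had a tag in both. Of all 14678 genes, 628 had no tag in Dox+ and 730 none in Dox−. Each of the 74 genes that lacked a tag in a library had fewer than 20 combined copies. The genes named in this paragraph were singled out after their values were seen.

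**Figure D4:**
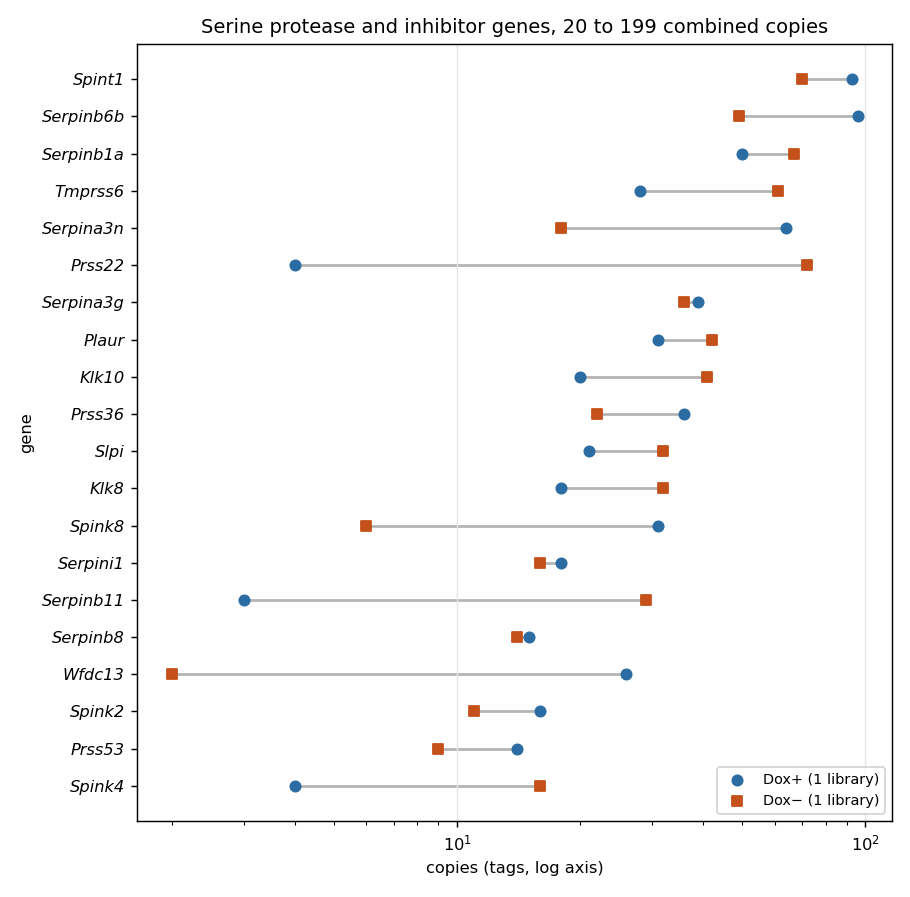
Copies (tags, log axis) of 20 of the 21 serine protease and inhibitor genes with at least 20 and fewer than 200 combined copies, with circles for Dox+ and squares for Dox−. The widest gaps are those of Prss22 (4 and 72 copies), Wfdc13 (26 and 2), Serpinb11 (3 and 29) and Spink8 (31 and 6).

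The order of the levels was read per kilobase of the longest annotated transcript. Serpinh1 led in both libraries with 1123 TPM per kb in Dox+ and 1000.4 in Dox−, and Wfdc2 followed with 240 and 212. In Dox+ Serping1 with 148, Serpinf1 with 120 and Htra1 with 95.9 TPM per kb came next. In Dox− Htra1 with 172, Serpinf1 with 119 and Spink12 with 118 came next, Serpinf1 and Spink12 being too close to be ordered by their counts. By this measure Spink12 was last of the 20 genes in Dox+ with 2.32 TPM per kb and held rank 5 in Dox−. The paper describes tag profiling, and if each transcript gave 1 tag, the length correction would not be needed and the order by TPM would apply. By TPM alone Serping1 and not Wfdc2 came second in Dox+. In Dox− by TPM alone, Htra1 (351), Serpinf1 (217), Prss23 (210), Plat (207), Serping1 (185) and Wfdc2 (180) stood above Spink12 (119).

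The other genes of the serine protease systems were taken from lists written by hand, 101 genes of which 76 had a row and 37 had at least 200 combined copies. Of the 37, 5 were called higher and 9 lower, and the median of their log2 ratios was −0.13. These shares stand beside 15.2% and 14.7% of all genes.

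Receptors and clotting control held several of the genes that fell. F2r, the thrombin receptor PAR1, which is opened by protease cleavage, fell from 710 copies in Dox+ to 83 in Dox−, 8.35-fold (6.65 to 10.6). The other 3 protease-activated receptors had 45 copies or fewer, with F2rl1 at 23 and 45. Tfpi, the inhibitor of the tissue factor pathway, fell from 646 to 398 copies, 1.58-fold (1.40 to 1.80). S100a10, a plasminogen receptor subunit, fell from 567 to 312 copies, while its partner Anxa2 had 1474 and 1416. F3, the tissue factor itself, had 252 and 218 copies, and Gas6 1230 and 1124. Of the 8 endothelial markers, 6 had fewer copies per clean tag in Dox−. Cdh5 fell from 446 to 216 copies, Tie1 from 191 to 100 and Cldn5 from 152 to 90. Pecam1, with 243 and 253 copies, and Vwf, with 177 and 148, were not called, and both intervals included 1. Kdr had 10 and 17 copies. The part of endothelial content in the F2r and Tfpi values was not tested.

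Among the convertases, which cut precursor proteins, Pcsk5 fell from 450 to 108 copies, 4.07-fold (3.29 to 5.07), and Furin, with 246 and 242, and Mbtps1, with 740 and 756, were not called. Complement proteases split. Cfb, the protease of the alternative pathway, rose from 219 to 514 copies, 2.40-fold (2.05 to 2.83), and C1ra, of the classical pathway that Serping1 restrains, fell from 332 to 161, 2.01-fold (1.66 to 2.45). C2 had 80 and 44 copies. Among plasma-type proteases Cfd had 1081 and 875 copies and Cfi 32 and 61. Hpn, a membrane protease that Spint1 and Spint2 also block, rose from 83 to 157 copies, 1.94-fold (1.48 to 2.56), while Dpp4 had 82 and 81 and Fap 21 and 22. Lonp1, a protease of mitochondria, rose from 653 to 1260 copies, and Tpp1, of lysosomes, fell from 342 to 203, among 11 tested peptidases of this list. Of the lysosomal carboxypeptidases on it, Scpep1 had 632 and 709 copies, Ctsa 758 and 494, and Prcp 346 and 234, and none was called. Ctsa had a log2 ratio of −0.58, just short of the 1.5-fold threshold, and Prcp was 1.44-fold lower (1.22 to 1.71).

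Other inhibitors moved in both directions. A2m, a broad protease trap, rose from 342 to 1579 copies, 4.73-fold (4.20 to 5.33), and Itih3, of the inter-alpha-trypsin inhibitors, from 613 to 1181, 1.97-fold (1.79 to 2.18). Reck, a membrane inhibitor of metalloproteases with Kazal-like repeats, fell from 240 to 124 copies, and Pi15 from 132 to 80. Ctla2a fell from 29646 to 1184 copies, 24.4-fold (23.1 to 25.9). Ctla2a and Cst3, with 3295 and 2933 copies, are known as inhibitors of cysteine proteases, so the list's name does not describe them. Ctla2a has a close copy, Ctla2b, and its count is uncertain in the same way as those of the serpin copies.

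**Figure D5:**
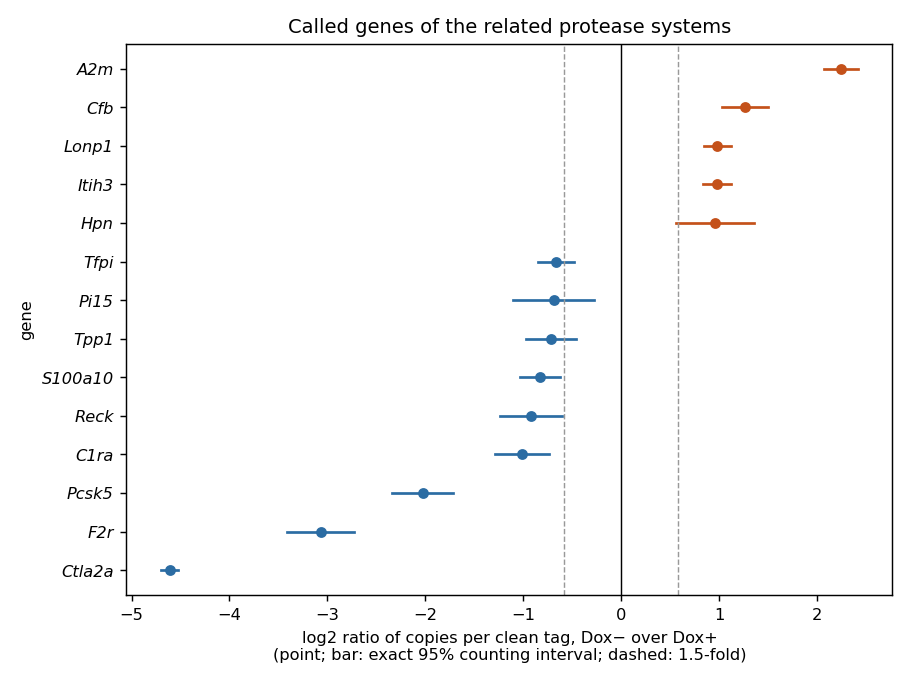
Log2 ratio of Dox− over Dox+ of the 14 called genes from the hand-written lists of related protease systems, with bars for the exact 95% counting interval and dashed lines at 1.5-fold. A2m, Cfb, Lonp1, Itih3 and Hpn lie on the higher side, and Ctla2a (24.4-fold lower) and F2r (8.35-fold lower) lie farthest on the lower side.

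Mast cell proteases stood at low counts and none of the 13 leukocyte and mast cell proteases with a row reached 200 combined copies. Tpsb2, a tryptase, had 95 copies in Dox+ and 5 in Dox−, 18.6-fold lower (7.68 to 58.4). Cma1, a chymase, had 98 and 8 copies, lower by a fold of 5.84 to 28.5 in its interval. Mcpt4, another chymase, had 28 copies and 0, 9.11-fold lower with 3 copies set for Dox− and an interval from 6.93 upward. Cpa3, a mast cell carboxypeptidase outside the serine class, had 66 and 9 copies. All of these intervals excluded 1, and the tryptase, chymase and granzyme families also hold close copies. Kit, a receptor of mast cells and other cells, had 22 and 20 copies, and the 6 mast cell markers with a row had a total of 53.1 TPM in the Dox+ library against 7.53 in the Dox− library. That total includes Tpsb2, Cma1, Mcpt4 and Cpa3 themselves, so it is not a separate measure of mast cell content. The granzymes were low in both libraries, with Gzmb at 32 and 8 copies, Gzmc at 35 and 17 and Gzma at 11 and 7, while Serpinb9, which inhibits granzyme B, had 126 and 118. The part of mast cell content in these values was not tested. Leukocyte markers summed to 95.9 and 119 TPM and uterine NK cell markers, which include Gzma and Gzmb, to 15.7 and 7.53. Pancreas markers gave 5.68 and 5.82 TPM, and liver and plasma markers 94.6 and 55.3, most of it Trf.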

How the data were processed

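Total RNA (6 µg) of 3 pooled uteri per group was sequenced by digital gene expression in 1 Dox+ and 1 Dox− library. The submitters' processing notes name mm9 and CASAVA. The labels describe fragmented mRNA and the paper describes tag profiling, a difference left unresolved. The aligner is not given in the sources used here, nor whether antisense tags entered the counts. The deposited counts are tags that the authors assigned to each gene, after removing adaptor-only tags, low quality tags and tags seen once. They sum to 4437506 in Dox+ and 4218459 in Dox−, fewer than the unambiguous tags that the paper reports. The reason for this gap is not given. The deposited TPM values are copies per 1000000 clean tags, as scaled by the authors. Library sizes of 5985925 and 5844314 clean tags were recovered as the only whole numbers that give every deposited TPM from its count. The authors' columns of ratios, P-values and FDR were not used.

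The test of Audic and Claverie (2 times the smaller tail) was run on all 14678 genes with Benjamini-Hochberg adjustment. Calls needed 200 combined copies, an FDR below 0.05 and a fold of at least 1.5. Where a library had 0 copies, 3 were set, and the fold leaves out counting error, so its interval can start lower. The planned floor for 1 to 3 copies was replaced by the ratio with its interval. The genes and lists were chosen with earlier results of these data known. The text names genes of the rule with 200 combined copies, the called genes and the 3 with the most copies of each related list, and 3 markers per list. Other genes under 200 copies and other markers were named after their values were seen. Genes of the name rule were taken out of the related lists. Positions and transcript lengths are from GENCODE on NCBIM37, the mm9 assembly (73 of 74 genes matched to 1 position), and promoters from RefSeq. The alternatives were other filters, folds, scalings and tests. The values of 1 gene are not reported here. The scripts were tested on simulated data. Python 3.11.15, numpy 2.4.6, scipy 1.17.1, pandas 2.3.3, matplotlib 3.10.9, R 4.3.3 and edgeR 4.0.16 were used.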

Additional observations from a re-analysis of the deposited data

How the results depend on the processing

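With TMM factors, median-ratio size factors, counted tags as library sizes, Fisher's exact test, an FDR below 0.001 or 100 combined copies, the 3 higher and the 2 lower calls were kept, and 100 combined copies added Serpinb6b to the lower ones. The scalings moved the median of all genes by −0.03 to 0.04 (log2), and under these and a pseudocount of 1, all 80 values of the 20 tested genes stayed on their side of the threshold. Serpinf1, which was not called, changed sign with counted tags as library sizes. With no filter, 13 of the 74 genes were called higher and 8 lower, where 2044 and 2077 of all 14678 genes were. A fold of 2 left 1 lower call, Wfdc1. The test of edgeR with an assumed coefficient of variation of 0.2 between pools left 2 higher calls, Prss23 and Spink12, and 1 lower call, Wfdc1, so that neither Htra1 nor Htra3 was called, and at 0.4 there was 1 higher call, Spink12, and 0 lower calls. The variation between pools is unknown, since each group had 1 library. The mean log2 ratio of the 20 genes was 0.20 against the median of −0.08.

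For the related lists, alternatives chosen after seeing the data gave 9 higher and 20 lower calls with no filter, 2 and 4 at a fold of 2, 1 and 3 at a coefficient of variation of 0.2, and 0 and 1 at 0.4. Of all genes, 302 and 368 were called at a fold of 2, 147 and 174 at 0.2, and 16 and 17 at 0.4. No paired analysis was possible because each group had 1 library.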

Other observations

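Many of the serine protease and inhibitor genes lie side by side in the genome. Taking genes within 500 kb of the next on NCBIM37, 8 stretches held at least 3 of them. The WAP stretch of chromosome 2 (164014967 to 164513206) held 7 genes, among them Wfdc2, Wfdc15b and Slpi, with 1446 copies in Dox+ and 1216 in Dox−, and Wfdc1 lies apart on chromosome 8. The clade B serpins of chromosome 1 (108757750 to 109505486), 7 genes with Serpinb7 and Serpinb11 among them, had 24 copies in Dox+ and 69 in Dox−, and the clade B serpins of chromosome 13, with Serpinb9 and Serpinb6b, 274 and 236. The 7 clade A serpins of chromosome 12 had 113 and 66 copies. The 3 Tmprss11 genes of chromosome 5 had no tag in Dox+ and 15 copies in Dox−, Tmprss11a with 9 of them. On chromosome 17 (23973752 to 24182921), Prss22 held 72 of the 74 copies that 4 Prss genes had in Dox−, where the 4 had 8 copies in Dox+. On chromosome 13 Serpinb6b had 96 and 49 copies and its neighbour Serpinb1a 50 and 67. The interval of Serpinb1a, 0.937 to 2.02-fold higher, included 1.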
